A study of Mus musculus with 16 samples.

Results

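The markers of liver progenitor and bile duct cells described here are 10 genes: the keratins Krt7, Krt8, Krt18 and Krt19, the transcription factor gene Sox9, and Epcam, Spp1, Prom1, Cd24a and Cd44. They were chosen by name and not by a rule on measured values, though with earlier results of these data known. They are 10 of the 40840 genes in the deposited count table. All 10 reached at least 10 counts over the 16 libraries, as did 20444 genes in all, and were therefore tested. The cells were the p53-/-; Myc hepatoblast line, a mouse cell culture model of hepatocellular carcinoma (HCC), and every group carried the loss of p53 and the excess of Myc. Sorafenib, an oral multi-kinase inhibitor given in advanced HCC, was applied at 8.5 µM, and its solvent DMSO was the control. The 4 groups were DMSO for 48 hours, sorafenib for 48 hours, DMSO for 7 days and sorafenib for 7 days, with 4 libraries in each. All libraries came from this 1 cultured line, which stands for no tumour tissue, and nothing in the labels says that replicates were separate cultures, so the p-values measure the spread between these libraries, which may be technical.

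During liver development, bipotent hepatoblasts give rise to hepatocytes and to the duct cells (cholangiocytes) that line the bile ducts, and after severe injury duct-like progenitor cells expand around the portal tracts. Keratins form intermediate filaments as pairs of a type II and a type I chain. Hepatocytes hold Krt8 (type II) with Krt18 (type I), whereas duct cells also make Krt7 (type II) and Krt19 (type I). Sox9 is a transcription factor of the embryonic ductal plate and of adult ducts, Epcam is an adhesion protein of epithelial and progenitor cells, and Spp1 encodes osteopontin, a secreted ligand of integrins and of CD44. Prom1 (CD133), Cd24a (CD24) and Cd44 (the hyaluronan receptor) are surface proteins used to sort progenitor and tumour-initiating liver cells, although Cd44 is also made by many mesenchymal and immune cells.

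The libraries held 16586254 to 30828427 counts (median 26360677). Normalized counts are counts divided by the library's effective size and set to a common depth, on which 3 counts, taken as the floor of detection, equalled 2.44 to 4.54 normalized counts. In the library sorafenib 48 h replicate 2, genes on chromosomes 15 to 19 and X stood at 0.604 times the level of its replicates relative to the other chromosomes, while the log2 step in the other 15 libraries was -0.00 to 0.07. Krt7, Krt8 and Krt18 (chromosome 15) and Epcam (chromosome 17) lie there, and their 48-hour values are given with and without this library. Other genes and group sums below include it unless stated. Some of these genes were also lowest there among sorafenib libraries at 48 hours. Acta2 was at 47772 normalized counts (others 69338 to 73383) and Tnfrsf12a at 1421 (others 1952 to 2141). With any 1 library left out, their 48-hour log2 fold changes were 3.72 to 3.93 and 2.59 to 2.80. Of 3 hepatoblast genes Dlk1 (3488 to 38122 counts per library) and Gpc3 (3698 to 21521 counts) were abundant, whereas Afp had only 0 to 14 counts. Of 4 hepatocyte genes Hnf4a was at 0 in all 16 libraries and Alb, Ttr and Apoa1 reached at most 1, 4 and 3 counts. The collagen gene Col1a1 (39863 to 81817 counts) and the smooth muscle actin gene Acta2 (4682 to 77571 counts) were high in every library. Reads on Trp53 (1268 to 4799 counts) remained in every library, so they do not check the p53 genotype, and Myc had 4226 to 17797 counts.

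On the scale of normalized counts per kilobase of exon, which allows levels of different genes to be set side by side, Cd24a led the markers in DMSO cells at 48 hours (2108 ± 103, mean ± SD, n = 4), followed by Krt19 (1666 ± 69.8) and Krt7 (459 ± 15.96). Krt18 (199 ± 10.1) and Cd44 (92.5 ± 2.79) came next. Krt8 (58.4 ± 3.69) and Sox9 (50.9 ± 6.38) did not differ beyond their spread, nor did Spp1 (24.0 ± 6.10) and Epcam (16.8 ± 2.34). Prom1 closed the list at 0.0545 ± 0.109. The duct keratins and Cd24a were thus expressed in the control cells, whereas Epcam was low and Prom1 was near 0. After 7 days of sorafenib the order had changed: Cd44 led at 1777 ± 50.4 per kilobase, ahead of Cd24a (1207 ± 26.6) and Krt19 (645 ± 20.2), while Krt7 had moved from the third to the eighth place (27.2 ± 3.04), just under Krt8 (32.4 ± 0.876). Sox9 held the fourth place there (216 ± 11.4), above Krt18 (123 ± 4.28) and Spp1 (79.8 ± 5.003). In DMSO cells at 7 days Krt19 (924 ± 35.2) and Krt7 (889.9 ± 31.4) overlapped, as did Spp1 (101 ± 18.2) and Sox9 (83.7 ± 4.41). In sorafenib cells at 48 hours Sox9 (159 ± 13.3) overlapped Krt18 (151 ± 40.2), Krt18 overlapped Krt7 (119.7 ± 17.96), and Krt8 (35.9 ± 13.8) overlapped Spp1 (34.1 ± 3.68). Epcam and Prom1 could not be set in order in either sorafenib group. The exon length used for Krt7 (4094 bases) is much longer than its coding length (1371 bases), so its place in these orders depends on which transcript is made.

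**Figure D1:**
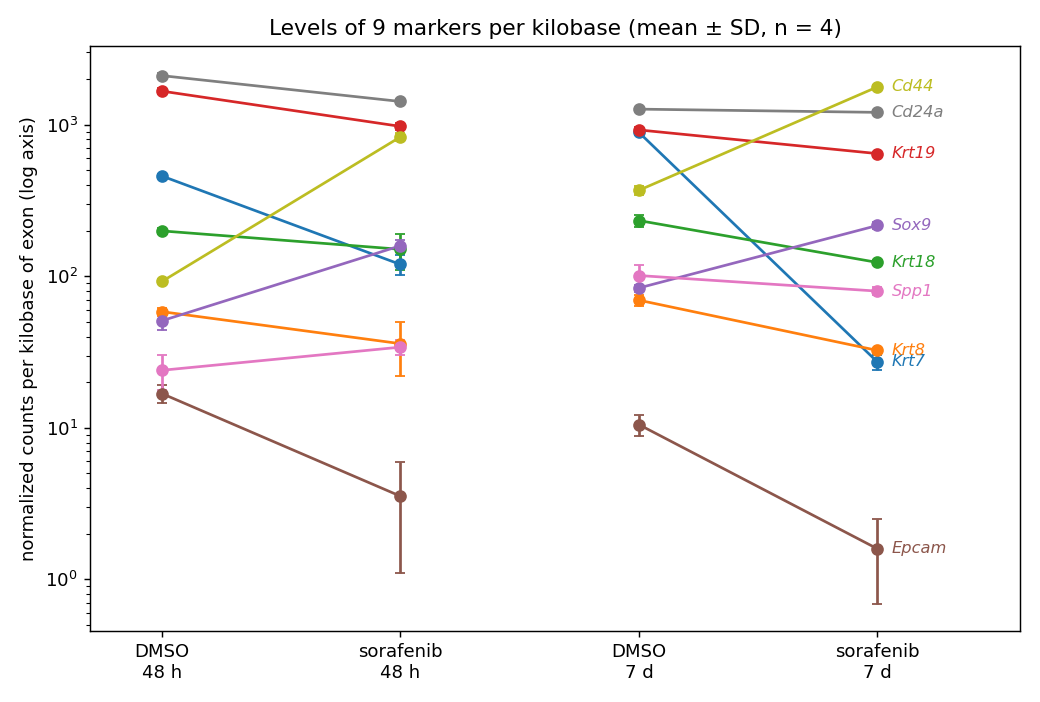
Mean level of 9 markers in the 4 groups, in normalized counts per kilobase of exon on a log axis, with bars for the SD over 4 libraries; lines join DMSO to sorafenib within a time point. Cd44 rose from 92.5 to 832 at 48 hours and from 369 to 1777 at 7 days, while Krt7 fell from 459 to 119.7 and from 889.9 to 27.2.

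Sorafenib raised some of these markers and lowered others. At 48 hours Cd44, Sox9 and Spp1 rose and Krt7, Krt8, Krt18, Krt19, Epcam and Cd24a fell, 9 of 10 with a false discovery rate (FDR, the Benjamini-Hochberg adjusted p over all tested genes from the quasi-likelihood test of edgeR) under 0.05 (3 higher, 6 lower). At this time point 54.6% of all tested genes were called, 26.9% higher and 27.7% lower. At 7 days Cd44 and Sox9 rose and Krt7, Krt8, Krt18, Krt19, Epcam and Spp1 fell, 8 of 10 in all (2 higher, 6 lower), where 56.8% of all tested genes were called, 28.9% higher and 27.9% lower. All tested genes include many with few counts. Of 12158 genes with at least 10 counts in every library, 75.6% were called at 48 hours and 75.2% at 7 days. Epcam and Prom1 do not reach that minimum. The libraries of DMSO and sorafenib did not overlap for 7 of the 10 markers at 48 hours, against 48% of all tested genes, and for 8 of 10 at 7 days, against 56.8%. With a minimum of 1 for the absolute log2 fold change added to the FDR, 4 markers were called at 48 hours (Krt7, Sox9, Epcam and Cd44), against 18% of all tested genes, and 5 at 7 days (the same 4 and Krt8), against 20.6%. The median log2 fold change of the 10 markers was -0.48 at 48 hours and -0.43 at 7 days, beside -0.05 and 0.02 over all tested genes. Because these are bulk libraries, fewer cells that make a marker and less of its RNA per cell cannot be told apart.

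**Figure D2:**
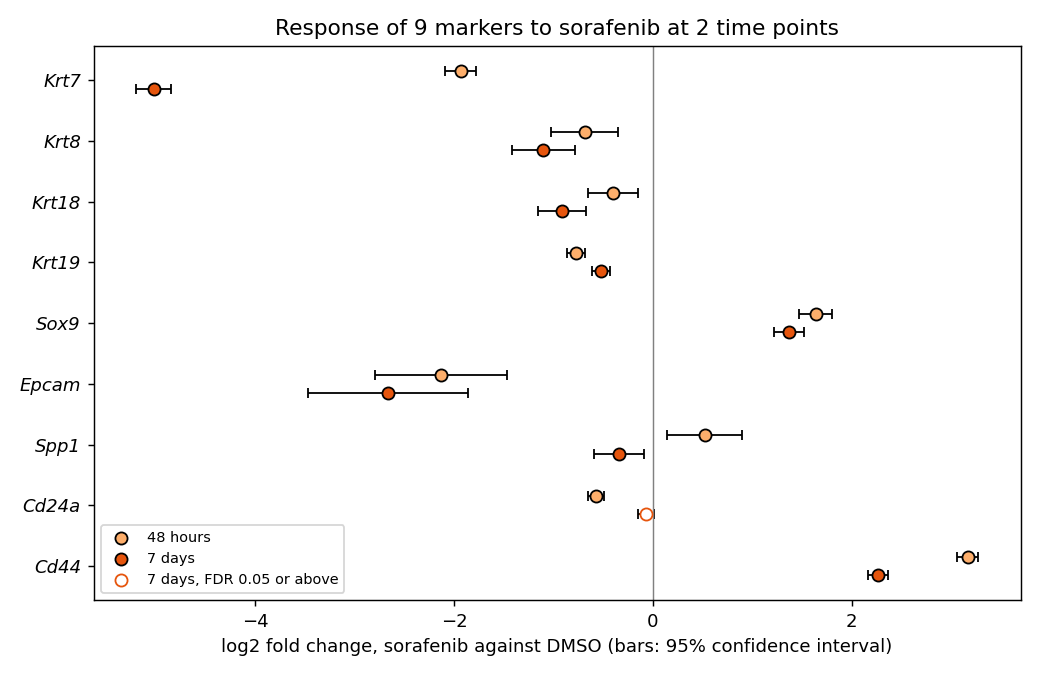
Log2 fold change of 9 markers, sorafenib against DMSO, at 48 hours (light) and 7 days (dark), with 95% confidence intervals from the edgeR model; the open symbol has an FDR of 0.05 or above, and Prom1 is not drawn because its counts were too low. Krt7 and Epcam lie farthest to the left and Cd44 and Sox9 to the right at both time points, while Spp1 lies on opposite sides of 0.

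**Figure D3:**
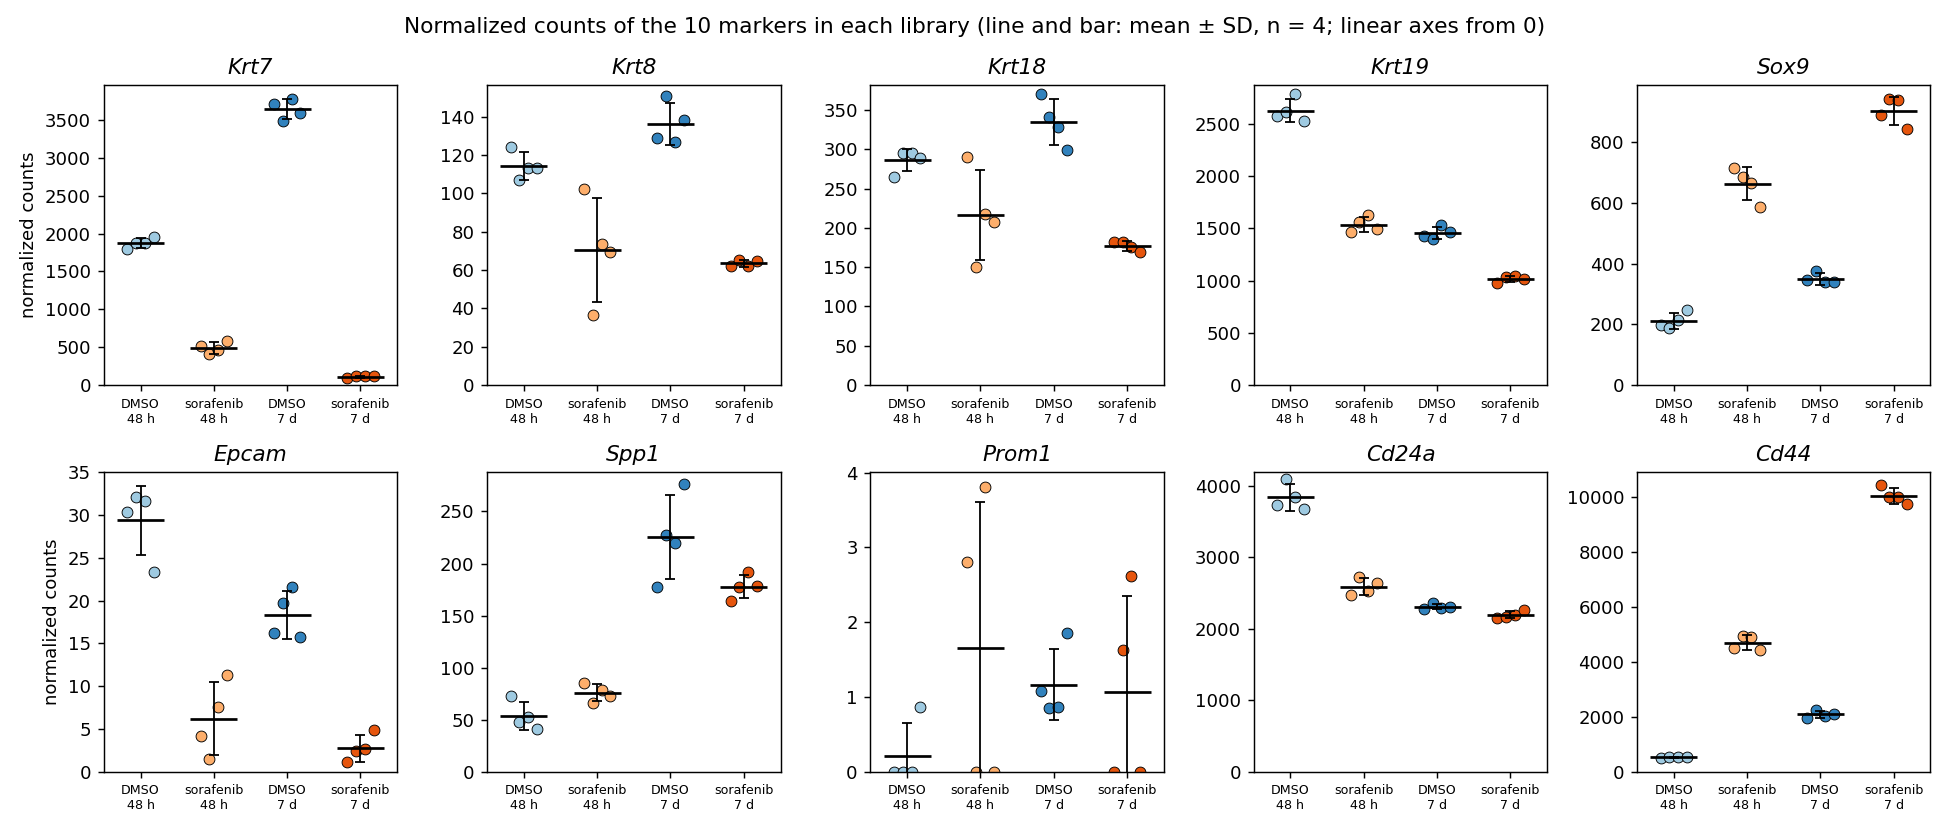
Normalized counts of the 10 markers in each of the 16 libraries, with the mean and SD of each group of 4 (bars that pass below 0 are cut at the axis); every panel has its own linear axis from 0. Krt7 and Cd44 separate all 4 groups, whereas Prom1 stays below 4 normalized counts in every library.

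The 250 bases before the RefSeq transcription start are shown for the markers with the largest decreases, Krt7 and Epcam, and for the one with the largest increase, Cd44. Sequences came from a RefSeq table that held 7 of the 10 markers (not Krt19, Sox9 and Cd24a), and each matched GRCm39 at a single place. They are written 5′ to 3′ on the gene's strand, and capitals mark matches, on either strand, to the AP-1 motif TGANTCA or to the E-box CACCTG that SNAIL and ZEB repressors bind. The Krt7 window is chr15:101310034-101310283 (+ strand), inside the span of the antisense gene Gm671, with 162 bases in exons of Krt7 transcripts. The Epcam window is chr17:87943157-87943406 (+ strand) and the Cd44 window is chr2:102732011-102732260 (- strand), both directly before the annotated gene.
Krt7: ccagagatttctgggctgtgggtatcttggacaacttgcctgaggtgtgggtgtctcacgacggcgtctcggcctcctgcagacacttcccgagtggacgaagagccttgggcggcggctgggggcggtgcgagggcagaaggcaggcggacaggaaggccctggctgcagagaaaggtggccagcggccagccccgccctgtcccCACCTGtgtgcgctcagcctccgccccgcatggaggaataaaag
Epcam: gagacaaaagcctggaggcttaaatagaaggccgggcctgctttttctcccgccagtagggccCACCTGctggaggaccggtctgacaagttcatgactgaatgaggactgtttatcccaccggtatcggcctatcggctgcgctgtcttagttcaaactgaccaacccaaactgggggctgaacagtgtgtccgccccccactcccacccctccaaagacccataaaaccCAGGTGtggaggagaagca
Cd44: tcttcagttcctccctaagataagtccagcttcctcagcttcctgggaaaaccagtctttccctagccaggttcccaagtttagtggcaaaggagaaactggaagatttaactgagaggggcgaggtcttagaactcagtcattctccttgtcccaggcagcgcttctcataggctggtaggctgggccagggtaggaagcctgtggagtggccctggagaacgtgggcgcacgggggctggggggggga
The Krt7 window held CACCTG at 44 bases before the start, and the Epcam window held it at 187 and, on the other strand, at 19 bases before the start. The Krt8 and Krt18 windows also held 1 match each, at 111 and 214 bases before the start, and so did 1 of the 2 windows of each of Prom1 and Spp1. The Cd44 window held no match to CACCTG or TGANTCA. Of 32536 distinct windows of the same length in the RefSeq table, 17.3% held CACCTG and 6.73% held TGANTCA. A GC box (GGGCGG, either strand), present in 33.0% of windows, occurred 4 times before Krt7. These matches describe letters only, and no binding was measured.

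Krt7, the type II keratin of ducts (chr15:101308924-101328194), showed the largest decrease of the 10 markers at 7 days, and at 48 hours it came after Epcam on the log2 scale. The DMSO libraries at 48 hours had 1796, 1881, 1876 and 1956 normalized counts and the sorafenib libraries 515, 407, 459.7 and 578. At 7 days the DMSO libraries had 3716, 3492, 3778 and 3587 and the sorafenib libraries 93.4, 116, 114 and 122. Every sorafenib library lay below every DMSO library, and the DMSO and sorafenib groups moved apart with time. Krt7 fell 3.82-fold at 48 hours (log2 fold change -1.93 ± 0.07, SE; FDR 8.18e-15) and 32.5-fold at 7 days (-5.02 ± 0.09; FDR 4.74e-20). The responses at 7 days and 48 hours differed by -3.09 ± 0.11 on the log2 scale (FDR 5.27e-14). Krt7 rose 1.94-fold between 48 hours and 7 days in DMSO cells and fell 4.39-fold over the same time in sorafenib cells. Without sorafenib 48 h replicate 2 the 48-hour value was -1.87.

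Krt19, the type I keratin of ducts (chr11:100031636-100039491), fell much less. The DMSO libraries at 48 hours had 2578, 2614, 2783 and 2530.2 normalized counts and the sorafenib libraries 1461, 1564, 1627 and 1497. The 7-day libraries had 1430.5, 1399, 1528 and 1469 in DMSO and 973, 1031, 1047 and 1014 in sorafenib. The groups did not overlap within either time point, but DMSO cells at 7 days overlapped sorafenib cells at 48 hours. Krt19 fell 1.71-fold at 48 hours (-0.77 ± 0.04; FDR 4.02e-12) and 1.43-fold at 7 days (-0.52 ± 0.04; FDR 2.82e-09). The response was smaller at 7 days (difference 0.25 ± 0.06; FDR 0.00249). Unlike Krt7, Krt19 fell with time in DMSO cells, 1.80-fold (FDR 2.11e-12), and in sorafenib cells, 1.51-fold (FDR 1.38e-09).

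Krt8 (chr15:101905133-101912917, - strand) and Krt18 (chr15:101936615-101940462) form the keratin pair that hepatocytes share with ducts. Krt8 had 124, 107, 113 and 113 normalized counts in DMSO and 102, 36.3, 73.3 and 69.3 in sorafenib libraries at 48 hours. At 7 days it had 129, 151, 127 and 138 in DMSO and 61.9, 65.0, 62.1 and 64.9 in sorafenib libraries. The lowest Krt8 value belonged to sorafenib 48 h replicate 2, and the groups did not overlap at either time point. Krt8 fell 1.61-fold at 48 hours (-0.69 ± 0.16; FDR 0.00119; -0.51 without that library) and 2.14-fold at 7 days (-1.10 ± 0.15; FDR 3.31e-06). Krt18 had 265, 296, 295 and 289 normalized counts in DMSO and 290.4, 149.7, 218 and 208 in sorafenib libraries at 48 hours, and 371, 341, 329 and 299.6 against 182, 182, 176 and 169 at 7 days. Its groups overlapped at 48 hours through sorafenib replicate 1 and did not overlap at 7 days. Krt18 fell 1.32-fold at 48 hours (-0.40 ± 0.12; FDR 0.00741; -0.28 without sorafenib replicate 2) and 1.89-fold at 7 days (-0.92 ± 0.12; FDR 9.72e-07). The larger Krt18 response at 7 days (difference -0.52 ± 0.17; FDR 0.0197) lost its call without DMSO 48 h replicate 1 (-0.46; FDR 0.057) or sorafenib 48 h replicate 1 (-0.33; FDR 0.0684). For Krt8 the difference was -0.41 (95% confidence interval -0.89 to 0.06; FDR 0.169), and it passed the test without sorafenib 48 h replicate 2 (-0.59; FDR 0.00511). The genome holds a near-identical processed copy of each gene, Krt8-ps and Gm5200, so some reads of this pair may have been assigned elsewhere.

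The 4 keratins were also compared as type II to type I ratios within each library, per kilobase of exon. In DMSO cells the ratio of Krt7 plus Krt8 to Krt18 plus Krt19 was 0.276, 0.276, 0.262 and 0.296 at 48 hours and 0.835, 0.827, 0.824 and 0.830 at 7 days. In sorafenib cells it was 0.158, 0.108, 0.126 and 0.161 at 48 hours and 0.0731, 0.0788, 0.0756 and 0.0827 at 7 days. The ratio was lower in all sorafenib libraries, by -1.02 on the log2 scale at 48 hours and by -3.42 at 7 days (exact two-sided permutation test of 4 against 4 libraries, p = 0.0286 at each time point, the smallest it can give; adjusted p = 0.0381 over 4 tests). Among these 4 genes, type II keratin RNA was below type I keratin RNA in all 16 libraries on this scale. Other keratins are left out, among them the abundant type I keratin gene Krt14. In DMSO cells at 48 hours Krt14 stood below Krt19 (1149 against 1666 per kilobase). At 7 days it stood above Krt19 in both treatments (729 against 645 in sorafenib cells). The ratio and the shares below therefore do not give the balance of all keratins in these cells. The coding length was also used in place of the exon length, an alternative chosen after seeing the data. The type II to type I ratio of the 4 keratins was then 1.87 in DMSO and 0.127 in sorafenib cells at 7 days. At 48 hours it was 0.604 and 0.281. For these 4 genes the order of both types in DMSO cells at 7 days therefore depends on the Krt7 length. The order at 48 hours and the direction of the change did not depend on it. The Krt8 to Krt18 ratio was 0.294 in DMSO and 0.232 in sorafenib cells at 48 hours (difference -0.35; exact permutation p = 0.0286, adjusted p = 0.0381), and the difference was -0.23 without sorafenib 48 h replicate 2 (exact permutation p = 0.0571). The test also missed the threshold without any 1 of the 4 DMSO libraries (-0.40 to -0.27). At 7 days it was 0.300 and 0.263 (difference -0.18; exact permutation p = 0.171, also after adjustment), with overlapping libraries. The summed level of the 4 keratins per kilobase was 2383 ± 73.7 in DMSO and 1281 ± 51.6 in sorafenib cells at 48 hours, and 2117 ± 57.7 and 828 ± 21.8 at 7 days. Krt19 made up 69.9% of that sum in DMSO cells at 48 hours, 43.7% at 7 days, and 76.2% and 77.9% in sorafenib cells. Krt7 made up 19.3% and 42.0% in DMSO cells and 9.33% and 3.28% in sorafenib cells.

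**Figure D4:**
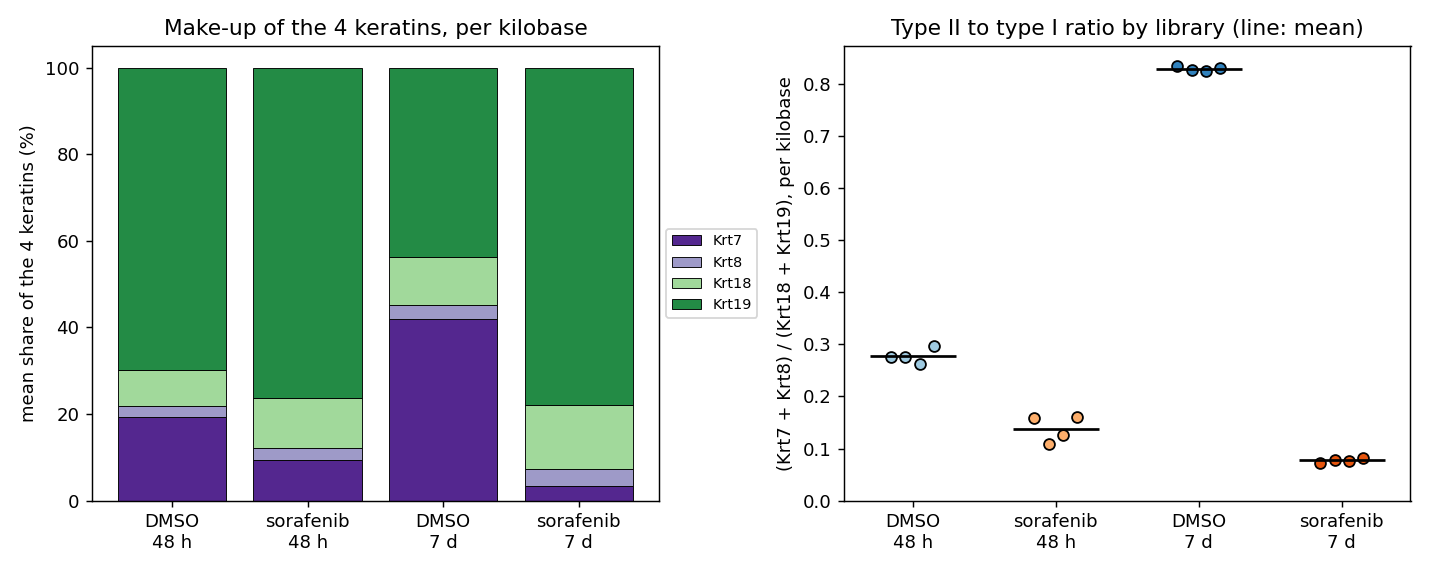
Left, mean share in percent of Krt7, Krt8, Krt18 and Krt19 in their summed level per kilobase of exon in the 4 groups. Right, type II to type I ratio of these 4 genes in each library, with lines for group means of 4 libraries. The Krt7 share falls from 42.0% to 3.28% between DMSO and sorafenib at 7 days, and the ratio lies at 0.824 to 0.835 in DMSO and at 0.0731 to 0.0827 in sorafenib libraries.

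Sox9 (chr11:112673009-112678586) rose while the duct keratins fell. The DMSO libraries at 48 hours had 199, 187, 214 and 249 normalized counts and the sorafenib libraries 717, 687, 666 and 587. After 7 days the DMSO libraries had 345, 377, 338 and 339 and the sorafenib libraries 889.7, 943, 940.2 and 843. No library of one treatment reached the range of the other, and both treatments stood higher at 7 days. Sox9 rose 3.11-fold at 48 hours (1.64 ± 0.08; FDR 5.71e-13) and 2.59-fold at 7 days (1.37 ± 0.07; FDR 1.84e-12). The responses differed by -0.27 (95% confidence interval -0.50 to -0.04; FDR 0.0611), a difference that passed the test without DMSO 48 h replicate 4 (-0.33; FDR 0.0154), sorafenib 48 h replicate 2 (-0.25; FDR 0.0356) or sorafenib 48 h replicate 4 (-0.30; FDR 0.0336). Sox9 rose with time 1.64-fold in DMSO cells (FDR 4.29e-07) and 1.37-fold in sorafenib cells (FDR 2.94e-05).

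Cd44 (chr2:102641486-102732010, - strand) showed the largest increase. The DMSO libraries at 48 hours had 499, 529, 529 and 534 normalized counts and the sorafenib libraries 4515, 4964, 4910.2 and 4421. At 7 days the DMSO libraries had 1951, 2265, 2034 and 2106 and the sorafenib libraries 10435, 9997, 10018 and 9748. The 4 groups did not overlap, and DMSO cells at 7 days stayed below sorafenib cells at 48 hours. Cd44 rose 8.99-fold at 48 hours (3.17 ± 0.05; FDR 4.12e-20) and 4.81-fold at 7 days (2.27 ± 0.05; FDR 7.55e-19). The smaller response at 7 days (difference -0.90 ± 0.07; FDR 1.69e-09) went with a 3.99-fold increase over time in DMSO cells (FDR 2.19e-16), beside 2.14-fold in sorafenib cells (FDR 1.75e-13). The summed level of 7 mesenchymal genes, a class of cells that also makes Cd44, was also higher in sorafenib cells: 118192 to 120392 normalized counts in DMSO and 183792 to 199650 in sorafenib libraries at 48 hours, and 110221 to 113877 against 124915 to 129624 at 7 days. This sum was carried by a few abundant genes that did not move together. Acta2, Col1a1 and Col1a2 rose at both time points, Col3a1 (70779 ± 657 to 46413 ± 2844 normalized counts at 48 hours) and Pdgfrb (1668 ± 54.2 to 977 ± 196) fell at both, and Des fell at 7 days (42.2 ± 7.80 to 18.8 ± 6.76). Of these genes Lrat was at 0 in all 16 libraries, and the other 6 were above the floor in every library of each group. Their part in the Cd44 result was not tested.

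Cd24a (chr10:43454280-43460264) fell at 48 hours and was close to its control at 7 days. The DMSO libraries at 48 hours had 3726, 4096, 3835 and 3676 normalized counts and the sorafenib libraries 2468, 2723, 2527 and 2635. After 7 days the DMSO libraries had 2281, 2355, 2283 and 2299 and the sorafenib libraries 2152, 2168, 2194 and 2262. The groups were far apart at 48 hours and adjacent, without overlap, at 7 days. Cd24a fell 1.48-fold at 48 hours (-0.57 ± 0.04; FDR 9.62e-11). At 7 days the log2 fold change was -0.07 (95% confidence interval -0.15 to 0.01; FDR 0.127), an interval that does not reach the 48-hour value, and the responses differed by 0.50 ± 0.05 (FDR 4.07e-07). Fitted on the 7-day libraries alone, the 7-day value was -0.08 with an FDR of 0.00994, and without sorafenib 48 h replicate 2 its FDR was 0.0408. Cd24a fell 1.66-fold with time in DMSO cells (FDR 4.28e-12) and 1.18-fold in sorafenib cells (FDR 5.03e-05). The gene overlaps Mtres1 on the opposite strand, and the strand setting of the counting is not given in the sources used here.

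Epcam (chr17:87943407-87958557) was scarce and fell further. The raw counts in DMSO libraries were 31, 37, 31 and 27 at 48 hours and 15, 23, 25 and 17 at 7 days, and in sorafenib libraries 3, 1, 8 and 10 at 48 hours and 1, 3, 3 and 5 at 7 days. Every sorafenib library held fewer counts than every DMSO library, and at 7 days 3 of the 4 sorafenib libraries were at or under 3 counts. Epcam fell at 48 hours (-2.13 ± 0.32; FDR 8.54e-06; -1.87 without sorafenib replicate 2) and at 7 days (-2.66 ± 0.38; FDR 5.09e-06). Over the summed counts of a group the level in DMSO was 4.39-fold higher at 48 hours (exact 95% interval 2.78 to 7.25, counting error only) and 6.59-fold higher at 7 days (3.57 to 13.3). The responses differed by -0.54 with a wide interval (-1.67 to 0.59; FDR 0.486). In DMSO cells Epcam fell 1.58-fold with time (-0.66 ± 0.24; FDR 0.0295), a call that was lost without any 1 of 5 libraries (DMSO 48 h replicates 1, 2 and 3, DMSO 7 d replicates 1 and 4; -0.65 to -0.60; FDR 0.0577 to 0.0737).

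Prom1 (chr5:44150962-44259395, - strand) was not usefully detected. The counts were 0, 0, 0 and 1 in DMSO and 2, 0, 4 and 0 in sorafenib libraries at 48 hours, and 1, 1, 1 and 2 against 0, 2, 3 and 0 at 7 days. Only 1 library passed 3 counts, and the groups overlapped. A difference was not detectable at this depth (FDR 0.1 at 48 hours and 1 at 7 days), and no fold change is given.

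Spp1 (chr5:104582165-104589235), the osteopontin gene, changed more with time than with treatment. The DMSO libraries at 48 hours had 72.3, 47.7, 53.1 and 40.6 normalized counts and the sorafenib libraries 85.6, 66.5, 79.0 and 72.7. At 7 days the DMSO libraries had 177, 228, 220.1 and 276 and the sorafenib libraries 164, 178, 192 and 178. Treatments overlapped at both time points, whereas every 7-day library lay above every 48-hour library. Spp1 rose 4.26-fold with time in DMSO cells (2.09 ± 0.15; FDR 3.02e-10) and 2.34-fold in sorafenib cells (1.23 ± 0.15; FDR 1.33e-06). Sorafenib raised it 1.44-fold at 48 hours (0.52 ± 0.18; FDR 0.0185) and lowered it 1.27-fold at 7 days (-0.34 ± 0.12; FDR 0.0207). Neither treatment call held when certain single libraries were left out. The 48-hour call was lost without DMSO replicate 2 (0.47) or 4 (0.38) or sorafenib replicate 1 (0.44) or 3 (0.47). The 7-day call was lost without DMSO replicate 4 (-0.23) or sorafenib replicate 1 (-0.31). The difference between the responses (-0.86 ± 0.22; FDR 0.00331) passed the test in all 16 fits that left out a library, with values of -1.02 to -0.72.

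Across the 10 markers the responses at 48 hours and 7 days differed for 6 (Krt7, Krt18, Krt19, Spp1, Cd24a and Cd44), where 36.8% of all tested genes did. Of the 12158 genes with at least 10 counts in every library, 56.2% did. Between the time points 7 markers changed in DMSO cells, where 49.4% of all tested genes and 71% of those 12158 genes were called. Krt7, Sox9, Spp1 and Cd44 rose and Krt19, Epcam and Cd24a fell. In sorafenib cells Sox9, Spp1 and Cd44 rose and Krt7, Krt19 and Cd24a fell with time, 6 of 10. Of all tested genes 39.7% were called there, and of the 12158 genes 59%. These comparisons share libraries with the treatment comparisons and do not add to them. The time points are separate sets of libraries, so time cannot be told apart from any other difference between the sets. Krt8 did not pass the test of time in either treatment (0.26 in DMSO cells, FDR 0.142; -0.16 in sorafenib cells, FDR 0.522), and Krt18 was close to the threshold in both (0.22, FDR 0.0996; -0.29, FDR 0.0754). Without sorafenib 48 h replicate 2 the time effect in DMSO cells passed for both (FDR 0.0329 and 0.0116), as did that of Krt18 in sorafenib cells (-0.41; FDR 0.000461).

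Other genes of bile ducts and progenitors moved in both directions. Of 14 tested bile duct genes 6 rose and 5 fell at 48 hours, and 7 rose and 5 fell at 7 days (median log2 fold change 0.08 and 0.26). Counts of this and the following lists stand beside 26.9% of all tested genes higher and 27.7% lower at 48 hours, and 28.9% higher and 27.9% lower at 7 days. The chloride channel gene Cftr rose from 23.8 ± 4.38 to 266 ± 43.7 normalized counts at 48 hours (3.48; FDR 1.96e-13) and from 27.9 ± 4.61 to 321 ± 37.7 at 7 days (3.53; FDR 4.9e-14). The water channel gene Aqp1 fell from 899.6 ± 41.0 to 93.0 ± 22.4 (-3.31; FDR 3.73e-16) and from 2907 ± 109 to 75.4 ± 14.4 (-5.27; FDR 1.1e-19). Of 13 other progenitor markers 9 rose and 3 fell at 48 hours, and 8 rose and 4 fell at 7 days (median 0.62 and 0.79). Thy1 (12.8-fold; 33.3 ± 8.61 to 437 ± 53.7) and Tnfrsf12a, the receptor of the progenitor mitogen TWEAK (6.46-fold; 290.2 ± 24.5 to 1873 ± 312), rose at 48 hours. At 7 days Cd34 rose 6.84-fold (62.4 ± 14.1 to 426 ± 17.3), and Aldh1a1, a retinal dehydrogenase, fell 3.98-fold (1906 ± 60.2 to 479 ± 28.3).

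Genes that work beside the keratins and Epcam also changed. Of 15 other keratins, filament partners and desmosomal linkers, 6 rose and 6 fell at each time point (median log2 fold change 0.06 at 48 hours and -0.82 at 7 days). The type I keratin gene Krt15 fell 28.4-fold at 48 hours (373 ± 19.7 to 12.98 ± 4.39 normalized counts; FDR 3.86e-16), and Evpl, which encodes the keratin linker envoplakin, fell 11.3-fold (375 ± 21.6 to 33.9 ± 7.85; FDR 6.2e-16). At 7 days Ppl (periplakin) fell 6.16-fold (649 ± 9.96 to 104 ± 28.9) and Krt14 fell 2.47-fold (3265 ± 65.4 to 1323 ± 70.2). Of 14 epithelial junction genes 3 rose and 4 fell at 48 hours, and 3 rose and 6 fell at 7 days (median 0.10 and -0.35). Cingulin (Cgn), a tight junction protein, fell 1.97-fold and 5.25-fold at these time points. The epithelial splicing factor gene Esrp2 fell 4.29-fold at 7 days. Other genes of these lists stood higher in sorafenib than in DMSO cells at 7 days. Krt80 was at 276 ± 15.1 normalized counts against 121 ± 12.4, and the cadherin gene Cdh1 at 196 ± 12.7 against 74.9 ± 6.98. The claudin gene Cldn1 was at 102 ± 14.3 against 14.2 ± 3.03.

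The list of ligands, receptors and partners of the markers held 23 tested genes, of which 11 rose and 5 fell at 48 hours and 9 rose and 10 fell at 7 days (median 0.33 and -0.05). Siglecg, the gene of the Siglec receptor that binds CD24 in mice, went from 8 counts over the 4 DMSO libraries to 1146 over the 4 sorafenib libraries at 48 hours (187-fold; exact 95% counting interval 94.5 to 434). At 7 days it went from 212 to 6151 counts (29.3-fold; 25.6 to 33.8). The counts of Siglecg in single sorafenib libraries were 209, 313, 373 and 251 at 48 hours, against 1, 1, 2 and 4 in DMSO. Cemip, whose product degrades hyaluronan, the ligand of CD44, rose 6.99-fold at 48 hours (25.4 ± 7.54 to 179 ± 29.1), and its level at 7 days was 401 ± 23.2 in DMSO and 189 ± 13.3 in sorafenib cells (-1.08; called lower). Itgb3, an integrin chain that binds osteopontin with Itgav, fell 1.57-fold at 48 hours and 2.87-fold at 7 days (419.7 ± 7.42 to 147 ± 9.79).

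Of 14 tested hepatoblast and hepatocyte genes 4 rose and 3 fell at 48 hours, and 4 rose and 5 fell at 7 days (median 0.19 and 0.28). These calls were 50.0% and 64.3% of the list, beside 54.6% and 56.8% of all tested genes. The hepatoblast gene Dlk1 fell from 16766 ± 807 to 4020.2 ± 84.9 normalized counts at 7 days (-2.06; FDR 3.98e-18), and the transferrin gene Trf fell 3.38-fold at 48 hours and 7.43-fold at 7 days. Foxa2, a transcription factor of early liver, rose 3.41-fold at 48 hours (211 ± 22.2 to 722 ± 78.4). The summed level of the hepatoblast markers Afp, Dlk1 and Gpc3 was 49794 to 51207 in DMSO and 18589 to 21465 in sorafenib libraries at 48 hours, and 24615 to 26929 against 8091 to 8346 at 7 days. Dlk1 and Gpc3 carried this sum, since Afp had 0 to 14 counts per library. Of 11 tested markers of immune, endothelial and mesenchymal cells 4 rose and 3 fell at 48 hours, and 4 rose and 5 fell at 7 days (median -0.30 and -0.06). Acta2 rose 14.0-fold at 48 hours (4683 ± 179 to 65481 ± 11921) and Col1a2 rose 3.36-fold (86.2 ± 14.4 to 287 ± 26.5). At 7 days the collagen gene Col3a1 fell 4.37-fold (44487 ± 1139 to 10180.2 ± 199) and Kdr rose 6.28-fold (31.3 ± 3.32 to 197 ± 17.03). The pan-leukocyte gene Ptprc and the endothelial gene Cdh5 reached at most 4 and 2 counts in a library, and Adgre1 was at 0 in all 16. Of 4 immune markers 1 or 2, and of 4 endothelial markers 1 or 2, were above the floor in a group. The immune markers summed to 61.9 to 157 and the endothelial markers to 36.8 to 228 normalized counts over the libraries, and the latter sum was higher in sorafenib (119 to 151 and 196 to 228) than in DMSO libraries (55.7 to 98.0 and 36.8 to 61.3). That difference came from Kdr, which rose at both time points (48.5 ± 12.0 to 121.7 ± 14.0 at 48 hours), whereas Tek fell at both (18.1 ± 4.04 to 6.15 ± 4.22 and 13.5 ± 5.77 to 6.97 ± 2.37) and Pecam1 averaged under 5 normalized counts in every group. The part of these cell type markers in the results above was not tested.

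**Figure D5:**
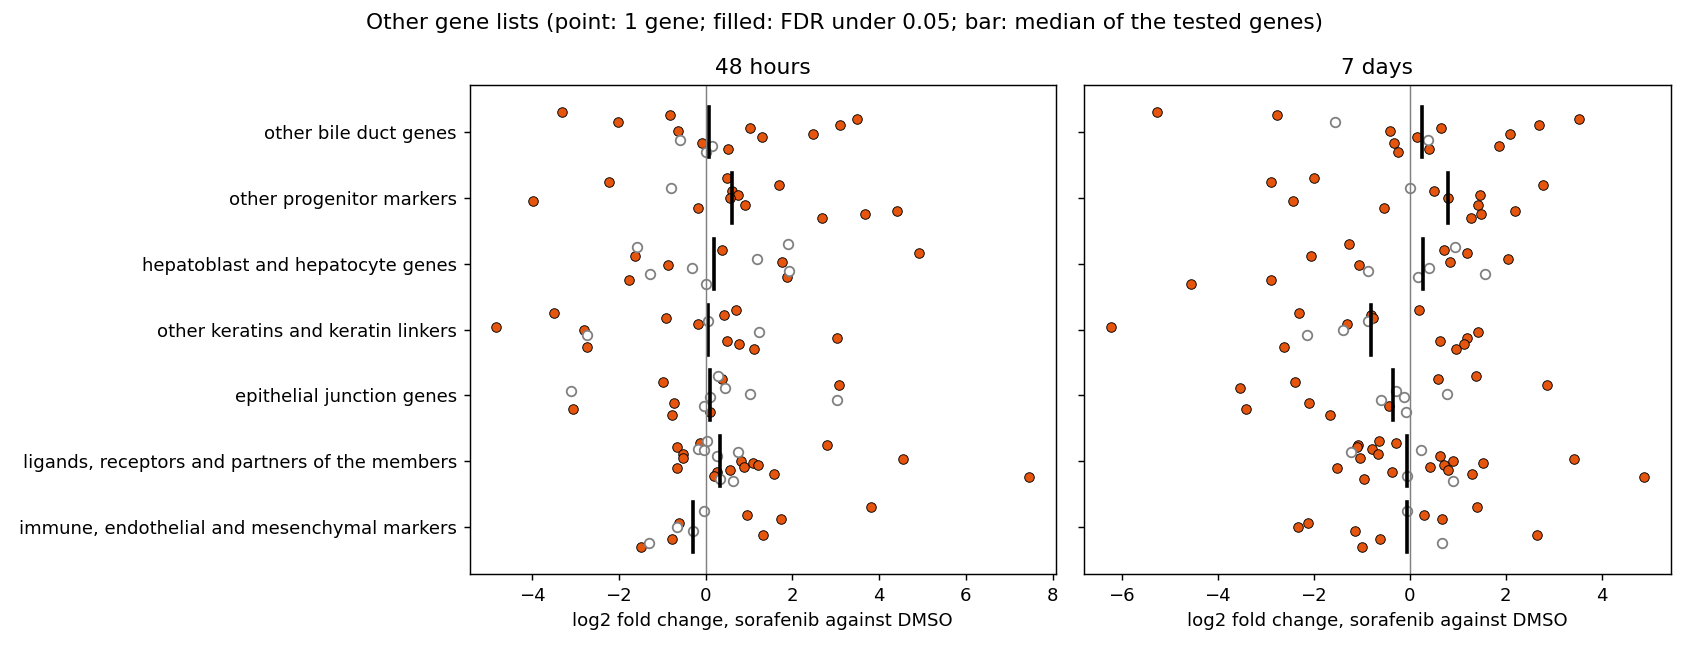
Log2 fold change of every tested gene of 7 other gene lists, sorafenib against DMSO, at 48 hours (left) and 7 days (right); filled points have an FDR under 0.05 and bars mark list medians. Every list holds genes on both sides of 0 at both time points, and the medians run from -0.30 to 0.62 at 48 hours and from -0.82 to 0.79 at 7 days.

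The patterns of the markers over the 4 groups were compared with those of 10646 genes by the root mean square (RMS) difference of centred log2 group means, a description over 4 groups. The sorafenib 48 h means include replicate 2, where Krt8 and Krt18 were both lowest, and the comparison was not repeated without it. Some neighbours named below also spread widely in that group, such as Msn (20379 ± 4052 normalized counts) and Armcx1 (755 ± 187). Ccnj and Zfp647 did so too. The part of replicate 2 in these spreads, and so in the distances of these genes, was not tested. Krt8 and Krt18 were the members closest to each other (RMS 0.149), followed by Krt19 and Cd24a (0.211), whereas the nearest marker to Krt7 was Epcam at 0.869 and the nearest to Sox9 was Cd44 at 0.788. Nearest to Krt7 among all genes were Ccbe1 (0.163) and Fam180a (0.198), and the level of Ccbe1 was 285 ± 24.3, 95.2 ± 31.4, 510.2 ± 45.04 and 15.9 ± 1.17 in DMSO 48 h, sorafenib 48 h, DMSO 7 d and sorafenib 7 d. Nearest to Krt19 were St6galnac6 (0.0197) and Armcx1 (0.0356), to Krt8 Ccnj (0.0537) and Bend4 (0.059), and to Krt18 Rbm12 (0.0326) and Atp5g3 (0.0336). Nearest to Sox9 were Prkab2 (0.032) and Msn (0.0457), which encodes moesin, a linker of CD44 to actin. For Cd44 they were Ttc9 (0.0872) and Sorbs2 (0.111), the latter at 102 ± 8.91, 1005 ± 47.5, 509 ± 56.3 and 2226 ± 49.8 in the same order. For Cd24a they were Zfp772 (0.0302) and Zfp647 (0.0307), for Epcam Nrk (0.14) and Apoe (0.147), and for Spp1 Gm52481 (0.206) and Mirt1 (0.207).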

How the data were processed

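RNA-seq libraries were made by the authors with a stranded Illumina mRNA kit, sequenced on a NovaSeq instrument and aligned to GRCm39 (mm39) with STAR 2.7.1a; the submitters' processing notes also name featureCounts 2.0.6 (Subread) and DESeq2 1.40.2. The deposited values are raw counts per gene in 16 libraries, 4 in each of 4 groups taken from the labels, with no normalization. The strand setting and annotation of the counting are not given in the sources used here, which leaves genes that overlap on opposite strands or have near-identical copies less certain.

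Of 40840 genes, 20396 had fewer than 10 counts over all libraries and were removed, as the authors did. Counts were fitted with edgeR 4.0.16 (R 4.3.3; TMM, quasi-likelihood test, 1 model of 4 groups, no block), and a Benjamini-Hochberg FDR under 0.05 over all 20444 genes made a call. The step was tested on simulated data, where 200 of 200 changed genes were called with 7 other calls among 20087 genes for the 48-hour comparison. Every simulated gene had the same spread. The changed genes had a mean of at least 100 normalized counts and a change of at least 1 on the log2 scale. The test therefore gives no error rate for scarce genes, smaller changes or data in which most genes change. Fold changes are given as log2 value ± SE. Levels are mean ± SD over 4 libraries, and levels per kilobase used exon lengths of canonical GENCODE vM39 transcripts. Keratin ratios had exact two-sided permutation tests. Intervals of counts cover counting error only, since the reads carry no molecular identifiers. Promoter windows came from RefSeq, and 9 windows of 7 markers were matched to GRCm39. No replicate pair was within sampling noise (lowest chi-square per gene 1.58 over 24 pairs).

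The markers, lists, motifs and tests were chosen with earlier results of these data known. Named beside the markers were, per list and treatment comparison, the 2 called genes with the largest absolute log2 fold change and a mean of at least 100 normalized counts, and the 2 genes nearest to each marker in pattern, with the same minimum (Prom1 was too low); 1 gene that this rule names is not reported here. Genes of a separate list of cell type markers (hepatoblast, hepatocyte, immune, endothelial and mesenchymal) are named as checks of the cells. Krt80, Cdh1 and Cldn1 are named outside this rule, as genes of their lists that stood higher in sorafenib cells. Alternatives were DESeq2 1.42.0, its size factors in edgeR, total counts only, no filter beyond 1 count, a minimum of 10 counts in each sample, a fold change minimum of 1 on the log2 scale, only the libraries of a time point, a replicate block, an offset for the library with a lowered chromosome block, leaving out each library, and, for the keratin ratios, other lengths.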

Additional observations from a re-analysis of the deposited data

Results flagged for a closer look

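The difference between the responses at 7 days and 48 hours passed the interaction test for 6 of the 10 markers. It did so for 36.8% of all tested genes and 56.2% of genes with at least 10 counts in every library. The log2 differences were -3.09 for Krt7, -0.52 for Krt18, 0.25 for Krt19, -0.86 for Spp1, 0.50 for Cd24a and -0.90 for Cd44. The decreases of Krt7 and Krt18 were larger at 7 days, those of Krt19 and Cd24a were smaller, the increase of Cd44 was smaller, and Spp1 turned from higher to lower.

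Among 40 groups of 4 libraries (10 markers in 4 groups), 3 held a library that lay apart from the others by Dixon's criterion, where chance gives about 1 in 20 groups. Sox9 in DMSO 7 d replicate 2 was at 377 normalized counts, with the others at 338 to 345. Cd44 in DMSO 48 h replicate 1 was at 499, with the others at 529 to 534. Prom1 in DMSO 48 h replicate 4 was at 0.864, which is a single count, with the others at 0.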

How the results depend on the processing

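Of 1969 values recomputed under alternatives for 87 results, 1930 kept their side of the threshold (counts of calls, within 1.5 times). Values without a call could change direction among these. Krt8 over time in sorafenib cells did so, at -0.16 in the main fit and up to 0.06 when a library was left out. Of the other values 18 lost a call, 19 gained one and 2 counts of calls fell by more than 1.5 times. In all, 0 of the called values changed sign. With an added absolute log2 fold change of at least 1, 4 markers were called at 48 hours and 5 at 7 days, beside 18% and 20.6% of all tested genes. Leaving out each library in turn gave 8 to 10 called markers at 48 hours and 7 to 9 at 7 days. Of all tested genes 52.4% to 57% and 54.3% to 61.9% were called in these fits. The Krt8 to Krt18 ratio at 48 hours differed by -0.41 to -0.23 when a library was left out, and 5 of 8 such tests missed the threshold, at p = 0.0571 in the exact permutation test, which can go no lower than 0.0286 for 3 libraries against 4. At 7 days its difference ran from -0.26 to -0.12 and reached p = 0.0286 in the exact permutation test without DMSO 7 d replicate 1. The type II to type I ratio differed by -1.10 to -0.91 at 48 hours and by -3.45 to -3.39 at 7 days when a library was left out. With other lengths its difference was -1.12 to -1.11 and -3.89 to -3.85.

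The replicate numbers showed no clear pairing of the libraries. Deviations of libraries with the same number correlated at -0.05 to 0.01 at 48 hours and -0.01 to 0.12 at 7 days over 10646 genes. Those with different numbers correlated at -0.04 to 0.07 and -0.16 to 0.11. At 7 days the mean was 0.07 for the same number and -0.02 for different numbers. At each time point 1 of 4 libraries correlated best with its own number. Correlations this weak cannot decide whether the numbers pair the libraries. With the replicate number as a block, 9 markers were called at 48 hours and 8 at 7 days, and 6 differed between the responses. Of all tested genes 52.1%, 53.9% and 34.2% were called in this fit. The block's 48-hour and 7-day log2 fold changes were -1.94 and -5.02 for Krt7 and 3.17 and 2.27 for Cd44. The block could not be fitted for the comparisons over time, since the numbers are nested in the time points. The change of Epcam over time in sorafenib cells (-1.20; FDR 0.0617) passed the test without sorafenib 48 h replicate 2 (-1.46; FDR 0.0142), with an offset for that library (-1.32; FDR 0.0286) or without sorafenib 7 d replicate 4 (-1.57; FDR 0.032).

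With a minimum of 500 normalized counts in place of 100, the nearest genes of Krt18, Krt19 and Sox9 were the same, and at least 1 of the 2 changed for the other 6 markers. Depth limits Prom1 and Epcam, whose values rest on 0 to 4 and 1 to 37 counts per library.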
